A study of Drosophila melanogaster with 12 samples.

Results

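SR proteins are RNA-binding splicing factors with arginine- and serine-rich (RS) domains. They bind enhancer sequences in exons, recruit the spliceosome and shift the choice of splice sites. Their activity and location depend on phosphorylation of the RS domain by the SRPK kinases and by the LAMMER (CLK) kinases, of which Doa, Darkener of apricot, is the Drosophila member. In the fly, Doa mutations are known for eye and photoreceptor defects, and Tra2 works with SR proteins in the splicing of sex determination transcripts. The genes of 7 SR and SR-related proteins (SF2, B52, SC35, x16, Rsf1, Srp54 and tra2) and of 2 kinases (Doa and SRPK) were described here in the larval eye disc, the epithelium that forms the compound eye. They were taken by name from the authors' deposited tables, where 9 of 15904 gene rows hold them. All 9 were tested in every comparison, and 8 of them stood in rows that name no other gene. SF2 shared its row with the neighbouring gene Sulf1, an extracellular sulfatase, so its values cannot be assigned to SF2 alone.

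Eye discs of wandering Drosophila melanogaster larvae of the last instar were compared in 4 groups of 3 samples, each from 30 pairs of discs. All groups carried w1118 and sev-GAL4/UAS-GFP, where sev-GAL4 drives expression in sevenless-expressing cells of the disc only. The EP3037 group carried EP3037 and UAS-RasV12, a constitutively active Ras, and its label says that hsrω, a long noncoding RNA, is raised. The RNAi group carried UAS-hsrωRNAi and UAS-RasV12, and its label says that hsrω is lowered. The Ras group carried UAS-RasV12 and the allele dco2, and the control group carried dco2/+ without activated Ras, so dco2 is listed in the Ras and control groups and not in the other two. In comparisons of the EP3037 and RNAi groups with the Ras group, hsrω and dco2 cannot be told apart. Against the control, RasV12, hsrω and dco2 cannot be told apart for these groups. Levels are the authors' FPKM (fragments counted per transcript length and per sequencing depth), 1 value per gene and group pooled over its samples, so no value per sample or SD stands beside them. Whole discs were measured, so fewer cells of a type and less RNA per cell cannot be told apart, and gene levels do not show which isoforms were made or how the proteins were phosphorylated.

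The 12 eye disc markers examined were all at 1 FPKM or more in every group, summing to 628, 707, 648 and 657 FPKM in the EP3037, RNAi, Ras and control groups. Cuffdiff called 1 of the 12 higher in the RNAi group over the control and 1 lower in the EP3037 group over the RNAi group. Hsromega, the gene of hsrω, was at 606 FPKM in the EP3037 group, 398 in the RNAi group, 389 in the Ras group and 543 in the control, and no pair of groups passed the test for it (lowest q = 0.9996 in the authors' deposited Cuffdiff table). Its level in the RNAi group was thus not below that in the Ras group, and the groups are named here by their labels. Ras85D, the Ras gene, had 142, 151, 121 and 74.4 FPKM in these groups. Its p against the control was 5e-05 in the EP3037 and RNAi groups and 0.00055 in the Ras group (lowest q = 0.00789, authors' Cuffdiff). The receptor gene sev was at 28.99, 36.8, 28.4 and 22.6 FPKM. Its lowest p was 0.00035, in the RNAi group over the control (q = 0.0359 in the authors' deposited Cuffdiff table). No marker of the glia, haemocyte, fat body, muscle, salivary gland or ring gland lists was listed at 0 in any group. Some were under 1 FPKM, down to 0.166 FPKM for a salivary gland marker in the RNAi group. All 5 muscle and all 5 ring gland markers were at 1 FPKM or more in every group, so transcripts of marker genes of other tissues were detected.

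The SR genes differed widely in level, and FPKM values are per length, so levels can be set against each other. The highest were the SF2 row, B52 and SC35, between 149 and 293 FPKM in all groups. SF2 is the fly counterpart of human SRSF1, B52 is also known as SRp55, and SC35 is the counterpart of SRSF2. The row of SF2 and Sulf1 was at 293 FPKM in the EP3037 group, 257 in the RNAi group, 264 in the Ras group and 263 in the control. B52 had 203, 190.3, 186 and 187 FPKM in these groups. SC35 was at 158, 149, 171 and 149 FPKM. These rows kept the same order of level within each group, and their lowest and highest groups lay within 1.14-fold, 1.09-fold and 1.15-fold of each other.

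At middle levels stood Rsf1, a splicing repressor that antagonises SR proteins, and x16, an SR protein with a zinc knuckle. Rsf1 was at 69.5 FPKM in the EP3037 group, 71.7 in the RNAi group, 72.6 in the Ras group and 61.3 in the control, so the control was the lowest. For x16 the values were 62.2, 60.2, 56.8 and 56.4 FPKM, all within 1.10-fold of each other. The lowest levels were those of Srp54, which in the fly bridges intron sequences to the U2AF factor that marks 3′ splice sites, and of tra2, whose product with Tra activates female-specific exons of dsx. Srp54 was at 31.7 FPKM in the EP3037 group, 38.2 in the RNAi group, 34.4 in the Ras group and 38.9 in the control. For tra2 the values were 23.0, 21.5, 24.8 and 25.3 FPKM.

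Summed over the 7 SR genes, levels were 840.1 FPKM in the EP3037 group, 788 in the RNAi group, 809.8 in the Ras group and 781 in the control. The row of SF2 and Sulf1 made up 34.9%, 32.6%, 32.6% and 33.7% of that sum in the same order, and B52 24.2%, 24.1%, 23.0% and 24.0%. SC35 contributed 18.8%, 19.0%, 21.2% and 19.0%, the Ras group having the largest share. The shares of x16, Rsf1, Srp54 and tra2 lay between 2.73% and 9.10%. Pooled values give no error for these shares, and differences between them were not tested.

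The kinases stood between tra2 and x16 in level. SRPK, the SR-specific kinase that in mammals phosphorylates RS domains in the cytoplasm and promotes their nuclear import, was at 38.9 FPKM in the EP3037 group, 46.1 in the RNAi group, 42.0 in the Ras group and 41.2 in the control. Doa was at 29.4 FPKM in the EP3037 group, 51.8 in the RNAi group, 46.4 in the Ras group and 31.5 in the control. For Doa the RNAi and Ras groups were high and the EP3037 and control groups low, with a gap between the pairs. There were 0.755 FPKM of Doa per FPKM of SRPK in the EP3037 group, 1.12 in the RNAi group, 1.10 in the Ras group and 0.766 in the control, so the order of the 2 kinases differed between groups. That ratio was not tested.

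**Figure D1:**
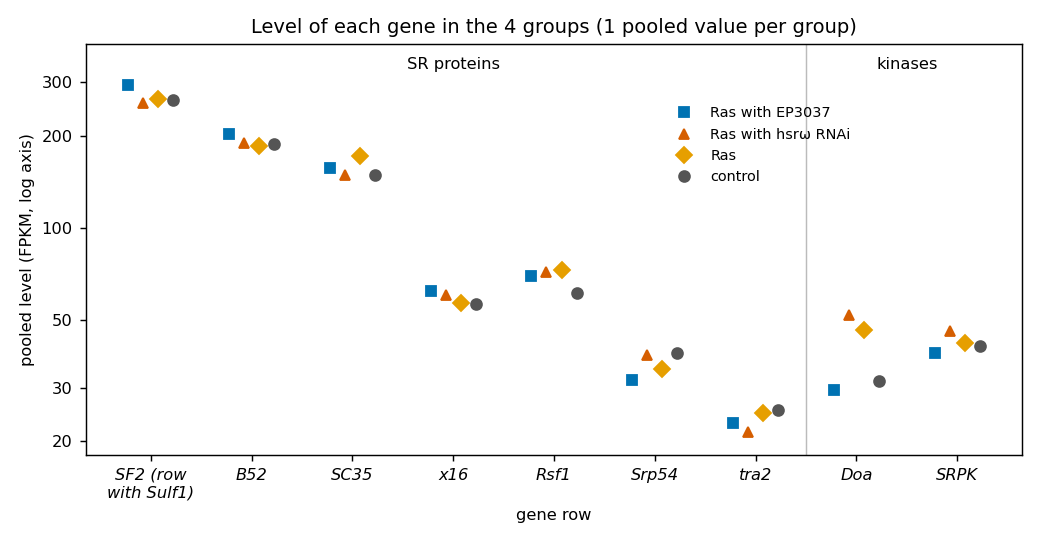
Level of the SR protein and kinase genes in the 4 groups, in FPKM on a log axis, with 1 point per group pooled by the authors and no error bars. Each of the SR genes and SRPK lies in a narrow band, whereas Doa is at 29.4 FPKM in the EP3037 group, 51.8 in the RNAi group, 46.4 in the Ras group and 31.5 in the control.

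The highest group over the lowest group gave a ratio of 1.76 for Doa and between 1.09 and 1.23 for the other 8 genes. The median ratio of the 9 genes was 1.17, beside 1.27 over the 8791 rows at 1 FPKM or more in every group and 1.22 over the 3144 rows at 20 FPKM or more. Of those 8791 rows 41.8% varied no more than the most variable of the other 8 genes, and 11.0% varied as much as Doa or more. A small spread over groups was common among all rows.

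Differences were read from the authors' Cuffdiff test. A gene was called at a q-value of 0.05 or less, q being adjusted over all genes of all 6 group pairs. The authors deposited no standard error, so an approximate one on the log2 scale was derived from their test statistic and p-value, and the 95% intervals below rest on it. Each group enters 3 of the 6 comparisons, so the comparisons share samples and are not independent of each other.

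Activated Ras against the control asks what RasV12 changes in the disc. None of the 9 genes was called by Cuffdiff, with 0.773% of 10996 tested rows called (0.418% higher and 0.355% lower), and at an unadjusted p of 0.05 the count was 1 of 9, with 4.63% of all rows. That gene was Doa, at 46.4 FPKM in the Ras group and 31.5 in the control, a log2 difference of 0.56 (interval 0.10 to 1.02, p = 0.0207, q = 0.527 in the authors' deposited Cuffdiff table). Rsf1 had the largest difference of the other genes, 0.24 (interval -0.15 to 0.64, p = 0.229 in the authors' deposited table). SF2, B52, x16, tra2 and SRPK were within 0.03 of 0 on the log2 scale. The median over the 9 genes was 0.01, beside 0.04 over all tested rows at 1 FPKM or more.

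The RNAi group against the control gave a like result. None of the 9 genes was called by Cuffdiff (1.72% of 10952 rows were, 1.11% higher and 0.603% lower), and 1 of 9 reached an unadjusted p of 0.05, with 8.74% of all rows. Doa was at 51.8 FPKM in the RNAi group and 31.5 in the control, a log2 difference of 0.72 (interval 0.28 to 1.15, p = 0.0018 in the authors' deposited table), but its q of 0.117 missed the threshold. SRPK differed by 0.16 (interval -0.25 to 0.57, p = 0.434 in the authors' deposited table). The differences of tra2 and Rsf1, the largest among the SR genes, were -0.23 and 0.23 (p = 0.324 and 0.228 in the authors' deposited table).

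In the EP3037 group against the control 0 of 9 genes were called by Cuffdiff, beside 0.643% of 11039 rows (0.254% higher and 0.39% lower), and 0 of 9 reached an unadjusted p of 0.05, with 3.52% of all rows. Doa was at 29.4 FPKM in the EP3037 group and 31.5 in the control, a log2 difference of -0.10 (interval -0.53 to 0.32, p = 0.635 in the authors' deposited table). Srp54 had the lowest p of all the SR genes in any comparison, 0.150, at 31.7 FPKM in the EP3037 group and 38.9 in the control (log2 difference -0.30, interval -0.69 to 0.10).

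The RNAi group against the Ras group compares discs that both carry RasV12 and that differ by the hsrω RNAi construct and by dco2. Cuffdiff called 0 of 9 genes, with 0.743% of 10897 rows called (0.174% higher and 0.569% lower), and 0 of 9 reached an unadjusted p of 0.05, with 5.2% of all rows. Doa was at 51.8 FPKM in the RNAi group and 46.4 in the Ras group, a log2 difference of 0.16 (interval -0.30 to 0.62, p = 0.501 in the authors' deposited table). SRPK differed by 0.13, tra2 by -0.21 and SC35 by -0.20, with p between 0.376 and 0.632.

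EP3037 set against Ras, where dco2 differs as well, again had 0 of 9 genes called by Cuffdiff, with 0.786% of 11062 rows called (0.181% higher and 0.606% lower). At an unadjusted p of 0.05 it had 1 of 9, with 5.89% of all rows. Doa was at 29.4 FPKM in the EP3037 group and 46.4 in the Ras group, a log2 difference of -0.66 (interval -1.11 to -0.21, p = 0.0046 in the authors' deposited table), and its q of 0.220 missed the threshold. The SF2 row, B52 and x16 differed by 0.15, 0.13 and 0.13, and SRPK by -0.11, with p between 0.544 and 0.683 for these rows.

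The EP3037 group against the RNAi group sets the opposite labels for hsrω side by side, both with RasV12 and without dco2. Doa fell to 29.4 FPKM in the EP3037 group, against 51.8 in the RNAi group, a log2 difference of -0.82 (interval -1.25 to -0.39) or 1.76-fold (p = 0.0002, q = 0.0240 in the authors' deposited Cuffdiff table). It was the only 1 of the 9 genes called, with 1.74% of 10981 rows called (0.219% higher and 1.52% lower), and the only 1 that reached an unadjusted p of 0.05, with 9.43% of all rows. The Doa call was lost at a q of 0.01. It was also lost with the trend of the difference with transcript length subtracted, read at the longest annotated Doa transcript. That left -0.48 (q = 0.709, computed here from the approximate error with Benjamini-Hochberg adjustment). The RNAi group was entered with 4 inputs for 3 samples, so the Doa call may count parts of a single sample as separate replicates. What that does to p and q was not tested. SRPK was at 38.9 FPKM in the EP3037 group and 46.1 in the RNAi group (log2 difference -0.25, interval -0.66 to 0.17, p = 0.243 in the authors' deposited table). Srp54 was at 31.7 and 38.2 FPKM (log2 difference -0.27, p = 0.163 in the authors' deposited table), and the SF2 row at 293 and 257 FPKM (0.19, p = 0.426). The median over the 9 genes was 0.05, beside 0.01 over all rows.

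**Figure D2:**
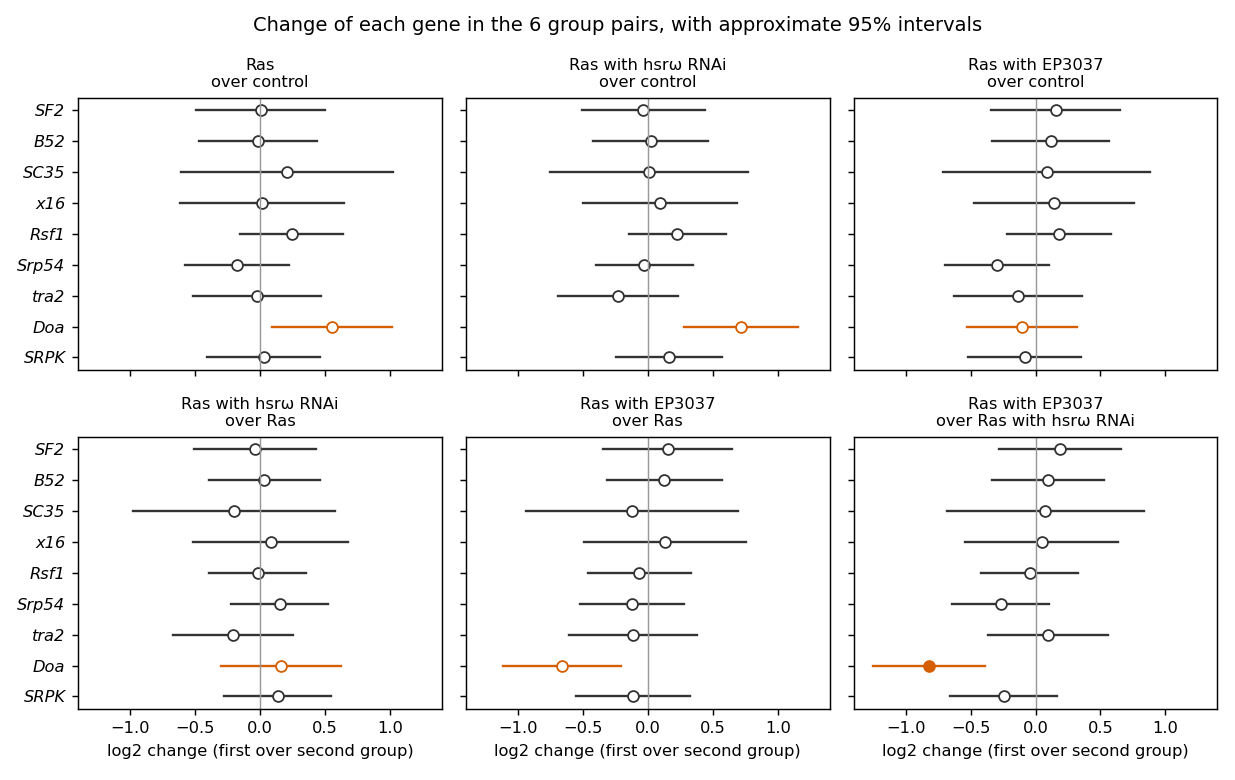
Log2 difference of each gene in the 6 group pairs, first group over second, with approximate 95% intervals. Filled points passed a q of 0.05, and Doa, in orange, is filled only for the EP3037 group over the RNAi group (-0.82), a call that is lost with the length trend subtracted (-0.48).

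Put in order, the Doa levels ran RNAi, Ras, control and EP3037 from high to low. Neighbours in that order did not differ beyond their error in 2 of 3 steps, RNAi against Ras (p = 0.501 in the authors' deposited table) and EP3037 against control (p = 0.635). The step between Ras and control had p = 0.0207 and q = 0.527 in the authors' deposited table. For the other genes no step passed an unadjusted p of 0.05. Of the 48 differences of the genes other than Doa, 47 had an interval that lay within 2-fold in either direction. The exception was SC35 in the Ras group over the control, whose interval reached 2.03-fold. SC35 had the widest error of the 9 genes, between 0.39 and 0.42 on the log2 scale, and the smallest errors, from 0.19, were those of Rsf1 and Srp54. A p that missed the threshold does not show that levels were equal, and differences up to the bounds of these intervals remain possible.

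Gene structure set Doa apart from the SR genes, by the Ensembl annotation. Doa spans 34700 bases of chromosome 3R (28888073 to 28922772, plus strand) with 15 annotated transcripts from 6 start positions, the longest being 7311 nt. SRPK (chromosome 2R, 15380724 to 15387851, plus strand) has 5 transcripts of up to 5121 nt. The SR genes span 1760 to 5910 bases, and B52 (chromosome 3R, 13661311 to 13666891, plus strand) has 10 transcripts of up to 3966 nt. Rsf1 (chromosome 2L, 10261795 to 10263554, minus strand) and Srp54 (chromosome 2L, 9912911 to 9915044, plus strand) are each annotated with a single exon. The remaining genes are SF2 (chromosome 3R, 16338943 to 16341988, minus strand), SC35 (chromosome 2L, 12431075 to 12434665, minus strand), x16 (chromosome 2L, 6914301 to 6920210, minus strand) and tra2 (chromosome 2R, 14602004 to 14604337, minus strand).

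Transcript length moved with the Doa difference. In the EP3037 group over the RNAi group, the 376 tested rows with a longest transcript at least that of Doa, at 1 FPKM or more on both sides, showed a median log2 difference of -0.46, and 88.03% of them were below 0. Of these rows, which were picked by length after the values of Doa were seen, 14.9% were called lower and 0 higher, whereas 0.812% of the 8006 rows with transcripts shorter than those of SRPK were called lower. The trend of the difference with length was -0.34 at the length of Doa and -0.21 at that of SRPK. With the trend subtracted, Doa stood at -0.48, as above, and SRPK at -0.04. The same rows of long transcripts had a median of 0.40 in the RNAi group over the control, 0.24 in the Ras group over the control, -0.29 in the EP3037 group over the Ras group and -0.05 in the EP3037 group over the control. Doa went in the direction of the long rows in each of these comparisons. What sets the trend with length was not tested.

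**Figure D3:**
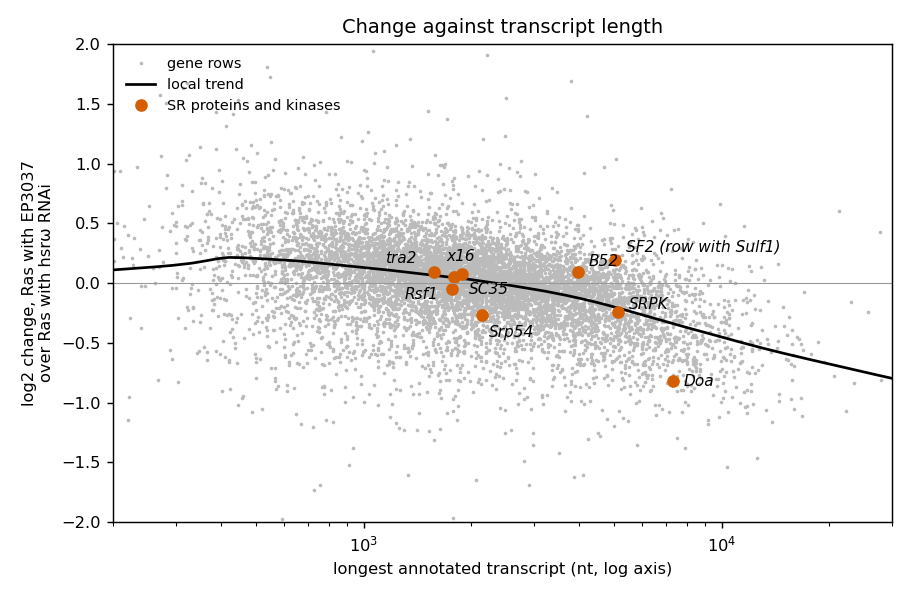
Log2 difference of the EP3037 group over the RNAi group against the longest annotated transcript of each row (nt, log axis), with the local trend as a black line and the SR proteins and kinases in orange; 295 of 8965 rows lie outside the axes. Long transcripts lie below 0, with Doa at -0.82 below a trend of -0.34 and SRPK at -0.25 near a trend of -0.21.

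Summed haemocyte markers moved along with Doa in this pair, 6 genes summing to 98.3 FPKM in the EP3037 group and 162 in the RNAi group, with none listed at 0 and 5 of 6 at 1 FPKM or more in both. Fat body markers ran the other way, 6 genes summing to 23.0 FPKM in the EP3037 group and 9.42 in the RNAi group, with 6 and 5 of them at 1 FPKM or more and none listed at 0. Salivary gland markers (5 genes) summed to 19.1 FPKM in the EP3037 group and 7.56 in the RNAi group, and muscle markers (5 genes) to 83.1 and 56.7 FPKM. For this pair Cuffdiff called 2 of 6 haemocyte markers lower and 3 of 6 fat body markers higher in the EP3037 group. It called 0 of 5 salivary gland and 0 of 5 muscle markers. In the RNAi group over the control, where Doa had its largest difference from the control, 5 of 6 fat body, 4 of 5 muscle and 2 of 5 ring gland markers were called lower by Cuffdiff, and of the 6 haemocyte markers 2 were called higher and 1 lower. Fat body markers summed to 9.42 FPKM in the RNAi group and 50.8 in the control, muscle markers to 56.7 and 105 FPKM, and ring gland markers to 58.8 and 112 FPKM. In the Ras group over the control 4 of 6 fat body markers were called lower. In the Ras group and the control the haemocyte sums were 70.6 and 74.5 FPKM, while Doa was at 46.4 and 31.5 FPKM. In the RNAi group over the Ras group 4 of 6 haemocyte markers were called higher (sums of 162 and 70.6 FPKM). Doa was at 51.8 and 46.4 FPKM in that pair. The part of these tissues in the Doa differences was not tested.

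Several of the 9 genes share the locus given for their row with other rows, and a shared locus does not by itself show that genes overlap. It is not given in the sources used here whether reads were counted by strand. The tables hold 3 other rows at the locus of SC35, 3 at that of x16, 2 at that of tra2 and 1 at that of SRPK, while B52, Rsf1, Srp54 and Doa had none. The SF2 row spans 4 other rows, all between 2.48 and 6.71 FPKM. Elf, the translation termination factor gene that shares the locus of SC35, was at 88.6 FPKM in the EP3037 group, 92.0 in the RNAi group, 92.8 in the Ras group and 91.9 in the control. The snoRNAs at the locus of SC35, snoRNA:SC35-a and snoRNA:SC35-b, were at 989.6 and 219.6 FPKM in the EP3037 group, 1161 and 298 in the RNAi group, 1214 and 329 in the Ras group, and 967.3 and 184.9 in the control. The snoRNP protein gene nop5, at the locus of x16, was at 68.3, 72.6, 69.3 and 70.0 FPKM in the order EP3037, RNAi, Ras and control. The replication licensing gene dup, at the locus of SRPK, was at 8.77, 11.1, 9.66 and 8.17 FPKM in that order. None of these rows had a p under 0.312 in any comparison. Values of SC35, x16, tra2 and SRPK may include reads of these neighbours and are uncertain to that extent.

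The profile over the 4 groups, as log2 FPKM centred for each row, was used to look for genes of like pattern. B52 and x16 were the closest pair among the 9, at a distance of 0.05. Doa was the farthest from any other member, its nearest being SRPK at 0.55. The rows nearest to the mean profile of the 9 genes, among rows at 10 FPKM or more, were pds5, Fip1 and CG2202, at distances of 0.018 to 0.021. These distances rest on 4 pooled values each and are a description only.

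Other genes of splicing and RNA processing were read from 7 lists that together hold 114 rows besides the 9, of which 113 were tested. The number called by Cuffdiff over these rows was 0 in the Ras group over the control and 0 in the EP3037 group over the RNAi group, with 5 and 10 rows at an unadjusted p of 0.05 or less, shares near the 4.63% and 9.43% of all rows. In each of the other comparisons 1 row was called, lower each time, and it was the same row. That row names CG13900, a subunit of the SF3b complex of the U2 snRNP, with the noncoding CR45184 and snoRNA:Me5.8S-G74, so it cannot be assigned to CG13900. It was at 119.9 FPKM in the EP3037 group, 115.2 in the RNAi group, 267 in the Ras group and 490.5 in the control. It was 4.09-fold lower in the EP3037 group and 4.26-fold lower in the RNAi group, both against the control (q = 0.00789 for both in the authors' deposited Cuffdiff table). It was 2.23-fold lower in the EP3037 group (q = 0.0399) and 2.32-fold lower in the RNAi group (q = 0.00789), both against the Ras group, by the authors' deposited tables.

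Other SR and SR-related proteins had 0 of 17 called in every comparison, and the lowest p were those of Spf45, CG7971 and scaf6. Spf45, an alternative splicing factor, was at 34.1 FPKM in the RNAi group and 47.2 in the Ras group (p = 0.0199, q = 0.517 in the authors' deposited table). CG7971, which encodes an SR-related matrix protein, was at 49.2 FPKM in the RNAi group and 33.7 in the control (p = 0.0405, q = 0.736 in the authors' deposited table). The splicing factor gene scaf6 was at 37.1 FPKM in the EP3037 group and 48.2 in the RNAi group (p = 0.0734 in the authors' deposited table). In the EP3037 group over the RNAi group the list's median log2 difference was -0.12, beside 0.01 over all rows. With the length trend subtracted the median was 0.04, with 9 of 17 genes above 0 and 8 below.

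Of the other kinases, phosphatases and the importer of SR proteins, 0 of 14 tested were called in any comparison. Top1, DNA topoisomerase I, which in mammals can also phosphorylate SR proteins, was at 40.3 FPKM in the EP3037 group and 55.4 in the Ras group (p = 0.0442, q = 0.759 in the authors' deposited table). The kinase gene srpk79D, related to SRPK, was much lower, at 3.24 FPKM in the RNAi group and 2.38 in the control (p = 0.0866 in the authors' deposited table). The Cdk11 gene Pitslre was at 20.9 FPKM in the EP3037 group and 26.4 in the RNAi group (p = 0.109 in the authors' deposited table). The list's median in the EP3037 group over the RNAi group was -0.14. Over the 13 genes that have a length trend it was -0.12, and 0.02 with that trend subtracted (8 above 0 and 5 below).

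Core snRNP and spliceosome genes were called in 1 of 33 cases at most, the row with CG13900. In the RNAi group over the Ras group 7 of 33 reached an unadjusted p of 0.05, all lower, beside 5.2% of all rows (1.35% higher and 3.85% lower). Among them were the Sm ring genes SmG at 188 FPKM in the RNAi group and 306 in the Ras group (q = 0.0893 in the authors' deposited table) and SmB at 90.1 and 139 FPKM (q = 0.188). Prp8, the scaffold of the catalytic spliceosome, was at 41.9 FPKM in the EP3037 group and 63.3 in the RNAi group (q = 0.213 in the authors' deposited table). The list's medians lay between -0.08 and 0.05 in the 6 comparisons.

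Genes of hnRNP-type regulators, many of which oppose SR proteins at exons, had 0 of 19 called in any comparison. Their median log2 difference was 0.29 in the RNAi group over the control, with 18 of 19 above 0, and -0.19 in the EP3037 group over the RNAi group, with 18 of 19 below 0. All rows at 1 FPKM or more had medians of -0.01 and 0.01, with 48.4% above 0 in the first pair and 49.4% below 0 in the second, but rows as long as Doa had 88.2% above 0 and 88.03% below 0. With the length trend subtracted, the list's median was 0.09 in the first pair, with 13 of the 18 genes that have a trend above 0, and -0.04 in the second, with 11 of 19 below 0. In the EP3037 group over the RNAi group, glo was at 43.0 FPKM in the EP3037 group and 64.3 in the RNAi group (p = 0.0029, q = 0.163 in the authors' deposited table). By the authors' deposited tables, the smooth gene sm was at 21.9 FPKM in the Ras group and 10.7 in the control (p = 0.0015, q = 0.104). The neuronal ELAV-family gene fne was at 1.46 FPKM in the EP3037 group and 0.725 in the control (q = 0.340 by the authors' deposited table).

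Of the sex determination cascade in which tra2 acts, 0 of 12 tested genes were called in any comparison, and the median log2 difference in the EP3037 group over the RNAi group was -0.19. Among them vir, a regulator of Sxl splicing, was at 10.3 FPKM in the EP3037 group and 13.5 in the RNAi group (p = 0.0477 in the authors' deposited table), and nito, a Spen-family protein, was at 37.1 FPKM in the EP3037 group and 48.4 in the RNAi group (p = 0.123). The male-specific RNA roX2, looked at after its values were seen, was at 247 FPKM in the EP3037 group, 175 in the RNAi group, 517 in the Ras group and 91.5 in the control, and roX1 was at 297, 322, 314 and 137 FPKM. By the authors' Cuffdiff, roX2 had p from 5e-05 to 0.0146 over the group pairs, with a lowest q of 0.00789. For roX1 the lowest q was 0.630. The sex of the larvae is not in the labels, and the part of sex in these values was not tested. The exon junction and nonsense-mediated decay genes had 0 of 11 called and a median of -0.12 in that pair, with nonC, the Smg1 kinase, at 9.57 FPKM in the EP3037 group and 12.9 in the RNAi group (p = 0.0227 in the authors' deposited table), mago at 45.7 FPKM in the RNAi group and 71.8 in the control (p = 0.0474) and Upf2 at p = 0.135. The mRNA export genes had 0 of 11 called and a median of 0.03 in that pair, with the nucleoporin gene Nup98-96 at 24.7 FPKM in the EP3037 group and 38.1 in the RNAi group (p = 0.0021, q = 0.129 in the authors' deposited table), Nxt1 at p = 0.0766 and thoc7 at p = 0.473.

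Transcript length also moved with the values of several of these lists and genes. In the EP3037 group over the RNAi group, subtracting the trend left a median of -0.04 for the sex determination list. It left 0.04 for the exon junction and decay list and -0.01 for the mRNA export list. For the 31 core spliceosome genes that have a trend, the median was 0.03 before and -0.03 after. With the trend subtracted, nonC stood at 0.04 in place of -0.43 on the log2 scale in the EP3037 group over the RNAi group, so its sign turned. In that pair Prp8 stood at -0.25 in place of -0.60, Nup98-96 at -0.32 in place of -0.62, vir at -0.13 in place of -0.39 and Pitslre at -0.18 in place of -0.34, while glo kept -0.59 beside -0.58. In their own comparisons above, SmB stood at -0.38 in place of -0.63, sm at 0.67 in place of 1.03 and CG7971 at 0.36 in place of 0.54.

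**Figure D4:**
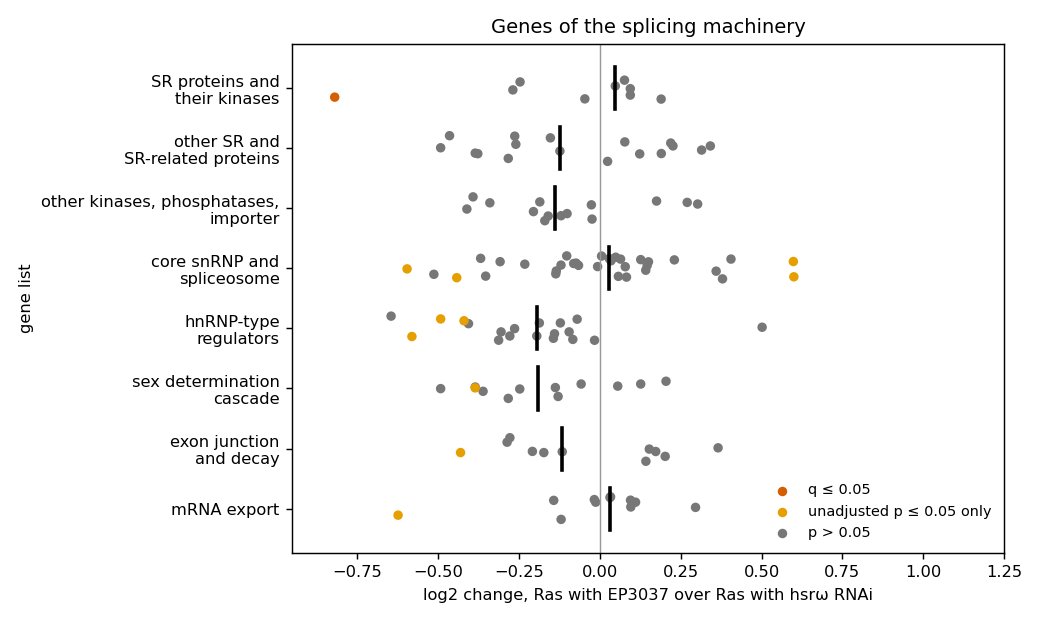
Log2 difference of the EP3037 group over the RNAi group for the SR proteins and kinases and for 7 lists of splicing and RNA processing genes, 1 point per tested row, with black bars at the medians. Doa is the only point past a q of 0.05, a call lost with the length trend subtracted; the hnRNP-type regulators have 18 of 19 points below 0, and 11 of 19 with that trend subtracted.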

How the data were processed

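The members and gene lists were chosen with earlier results of these data known. Total RNA libraries from 12 samples were sequenced as 50 bp read pairs, per the labels' protocols. Cuffdiff 2.1.1, Cufflinks, TopHat and Bowtie, with genome build dm6, are listed in the submitters' processing notes. Gene annotation, filters, the strand setting and the versions of the other tools are not given in the sources used. The authors deposited 6 pairwise tables that hold, per the file headers, each group's single pooled FPKM value per row, the Cuffdiff test statistic (a score), a p-value and a q-value. The hsrω RNAi group is listed there with 4 inputs for 3 samples, with its replicate 3 listed in parts. Whether the parts were tested as separate replicates is not given in the sources used. The factor between test statistic and p, given below, was 1.86 in every pair with this group and 1.74 in the others. So p was scaled differently in the pairs with this group. Parts tested as separate replicates would count a single sample more than once. Every p and q of a comparison with this group may depend on it. Whether the samples are separate crosses is not in the labels, and the p-values reflect the spread among these samples alone, and that spread may be technical. Read depth is unknown.

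Log2 differences were computed from the FPKM values. The deposited q was within 1.56e-05 of a Benjamini-Hochberg adjustment over all 65927 tests, and q at or under 0.05 was a call. The two-sided normal p of the test statistic did not follow the deposited p: the normal quantile of the deposited p was 1.74 times the statistic (median over rows), or 1.86 times where the RNAi group was involved. The error implied by the raw statistic, as first planned, was therefore replaced: the approximate standard error is the log2 difference over the statistic, divided by that factor. Length trends were local regressions (fraction 0.3, statsmodels 0.14.6) on the longest transcript of Ensembl release 115 (BDGP 6), tested on simulated data, with 98.8% of rows at 1 FPKM or more having a length; the SF2 row has that of Sulf1. Gene coordinates are from that annotation, on dm6. Rows as long as Doa, the list values with the length trend subtracted, and roX2 were looked at after the data were seen. Named genes are the 9 members, all called genes of each list or its 3 lowest p, the genes that check the labels, and the nearest profiles. A gene that this rule names is not reported here.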

Additional observations from a re-analysis of the deposited data

How the results depend on the processing

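No paired analysis was possible because the authors deposited 1 pooled value per gene and group, which also prevents leaving out replicates. At an unadjusted p of 0.05 the number of the 9 genes called was 1 in place of 0 in the Ras group over the control, the RNAi group over the control and the EP3037 group over the Ras group. In the EP3037 group over the RNAi group it was 0 in place of 1 at a q of 0.01 and 0 with the length trend subtracted. Adjusting within a comparison, with or without rows under 1 FPKM, leaving out multi-gene rows, subtracting the median and using the approximate error, the last added after seeing the data, left these counts as reported. The Doa q in that comparison was between 0.0147 and 0.0297 with the median subtracted or a pseudocount of 0.1 or 1 FPKM.

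Of 216 alternative log2 differences of single genes 10 changed sign, none of them called, with sizes of at most 0.11 as deposited and 0.07 afterwards. With the length trend subtracted these were SF2 (-0.0708) and SRPK (-0.0493) in the Ras group over the control, B52 (-0.0666) and Srp54 (0.00194) in the RNAi group over the control, B52 (-0.0270) and Rsf1 (0.0251) in the RNAi group over the Ras group, and SRPK (0.00871) in the EP3037 group over the Ras group. With the median subtracted they were SF2 (-0.0405), x16 (-0.0332) and SRPK (-0.0157) in the Ras group over the control. The cause was not tested.

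Over all rows, calls from the approximate error were 62 higher and 214 lower in the EP3037 group over the RNAi group and became 69 and 97 with the length trend subtracted. They were 178 and 108, then 103 and 103, in the RNAi group over the control. They were 38 and 117, then 38 and 55, in the RNAi group over the Ras group, and 50 and 100, then 51 and 57, in the EP3037 group over the Ras group. They were 89 and 57, then 56 and 63, in the Ras group over the control. The EP3037 group over the control had 55 and 67, then 48 and 62. The deposited q gave fewer calls in every pair. It gave 24 and 167 in the EP3037 group over the RNAi group and 122 and 66 in the RNAi group over the control. For the RNAi and EP3037 groups over the Ras group it gave 19 and 62, and 20 and 67. For the Ras and EP3037 groups over the control it gave 46 and 39, and 28 and 43. Pooled values limit the precision to the approximate error, and read depth is unknown.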
